A study of Drosophila melanogaster with 4 samples.

Results

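The proximal part of the Antennapedia complex, from lab to Dfd, held 41 of the 6207 Homothorax peaks that the authors called in Drosophila melanogaster embryos. Members were all peaks on chromosome arm 3R whose midpoint lies between positions 2470000 and 2639999 of FlyBase release 5, a stretch of 170 kb. The rule uses position alone, but the region was chosen with earlier results of these data known. That these positions hold the complex comes from the definition of the region and was not checked here against an annotation. The list holds 1537 peaks on 3R in all.

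Homothorax belongs to the TALE class of homeodomain proteins. It binds DNA as a partner of Extradenticle, the fly PBC protein, and holds Extradenticle in the nucleus. Both act as cofactors of the Hox proteins, which set segment identity along the body axis and share similar DNA preferences on their own. The Antennapedia complex carries the Hox genes of the head and anterior thorax. An enhancer at lab that responds to Labial together with Extradenticle and Homothorax is a standard model of Hox cofactor action, and Dfd also maintains its own expression through an upstream enhancer.

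The genes of the complex differ in role. lab, the most anterior Hox gene, acts in the intercalary segment of the head and in the midgut. pb acts in the mouthparts. zen specifies the amnioserosa and dorsal ectoderm, and zen2 is its close relative. bcd is the maternal gene whose protein gradient patterns the anterior of the embryo. zen, zen2 and bcd derive from a Hox gene but no longer work as homeotic selectors. Dfd acts in the mandibular and maxillary segments.

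The RefSeq gene table for release 6 places all 6 genes on 3R in the order lab, pb, zen2, zen, bcd, Dfd. From lab to Dfd it lists 22 genes, of which 16 code for proteins. Between lab and pb lie 8 protein-coding genes, Edg84A and 7 genes of the Ccp84A cuticle protein cluster. CG34297 lies between zen2 and zen. Ama, which encodes an adhesion protein of the immunoglobulin superfamily, lies between bcd and Dfd together with the microRNA gene mir-993 and 4 lncRNA genes. The table's positions belong to another build than the peaks and were not used. Peaks are therefore given by position, and the gene, exon, intron or UTR at each was not analysed here.

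Chromatin came from whole embryos with a stage label of 0 to 8 h, although the labels' protocol opens with a later laying window. All 4 libraries, 2 of ChIP with a guinea pig polyclonal serum against full-length Homothorax and 2 of input DNA, come from one strain, labelled Y cn bw sp. The visible markers among its labelled alleles are y[1], cn[1], bw[1] and sp[1]. The labels also give oc[R3.2], Gr22b[1] with Gr22d[1], CG33964[R4.2], Rh6[1], GstD5[1], MstProx[1] and LysC[1]. One further labelled allele, lab[R4.2], is of a gene of the region. All libraries share these alleles. Sex is given as unknown. Whole embryos mix many cell types, so a peak cannot be placed in a segment or tissue, and no cell type marker can be checked in a peak list. The table gives 1 score per peak for the whole series and none per library. The sources used here do not say what unit it has, read depth is unknown, and no replicate error exists for any value. Differences between peaks are thus descriptions without a test.

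Homothorax peaks were dense in the region, and a long stretch before its first peak held none. The 41 peaks amounted to 24.1 per 100 kb, against 5.51 per 100 kb over 3R and 4.99 over the 6 arms (X, 4 and both arms of chromosomes 2 and 3), each measured to the end of its last peak. Peaks covered 30.4 kb, or 17.9%, of the region. In the 170 kb before it, on the side of the centromere, the list holds 0 peaks. In the 170 kb after it, on the distal side, it holds 77, with 45.6% of the length covered. The region thus stood between an empty stretch and a fuller one. When peaks closer than 1 kb were merged, the region held 20 and the distal stretch 22, so the ratio of peak numbers rose from 0.532 to 0.909. Among the 50% of the list with the highest scores were 15 of the 41 peaks of the region and 39 of the 77 of the distal stretch.

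**Figure D1:**
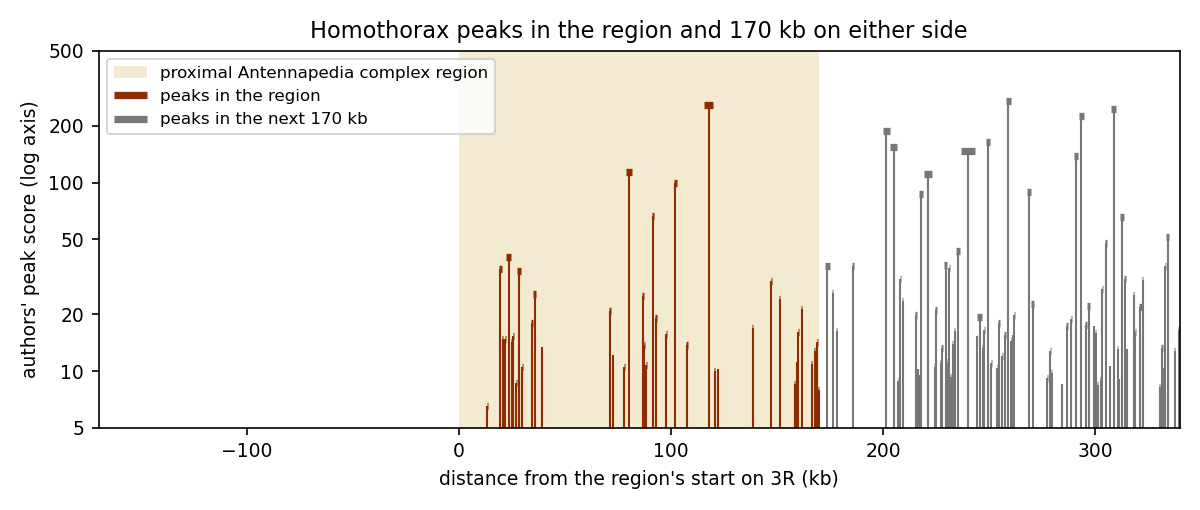
Each vertical line is 1 Homothorax peak, at its distance from the region's start in kb (horizontal axis), and its height is the authors' score on a log axis. The thick cap spans the width of the peak, and the shaded area is the 170 kb region. The previous 170 kb are empty, the highest of the 41 peaks in the region scores 259.05, and 77 peaks follow in the next 170 kb.

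Among 690 windows of 170 kb tiled over the 6 arms, the median was 5 peaks and 97 windows had none. Windows with at least 41 peaks numbered 12 (1.74%), and 6 of them were on 3R. Of the 12, 2 overlap the distal stretch, and 1 of these also overlaps the region itself. The other window over the region, from 2380001 to 2550000, held 17 peaks. At least as much of the length was covered in 24 windows (3.48%), against a median cover of 1.82%. A top score of 259.05 or more occurred in 13 windows (1.88%). The window from 2550001 to 2720000, which overlaps the region, is counted by cover (33.1%) and by top score as well. Its top score of 259.05 is that of the region's own highest peak. The window from 2720001 to 2890000, which overlaps the distal stretch, is also counted by both, at 40.4% and 306.85. By number of peaks, cover and top score, the region was therefore near the upper end of the windows, and in none of them the highest.

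**Figure D2:**
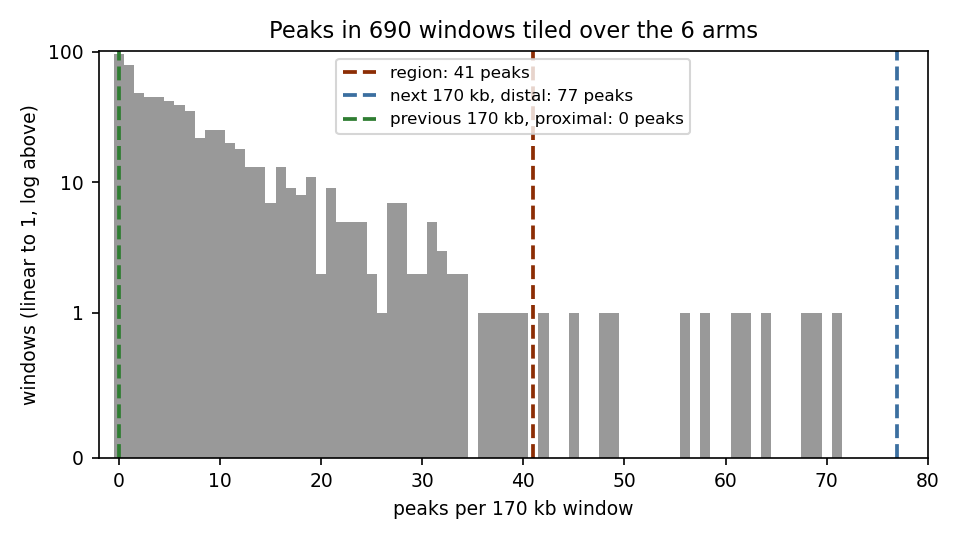
The bars show how many of the 690 windows of 170 kb tiled over the 6 arms (vertical axis, linear to 1 and log above) held a given number of peaks (horizontal axis). Dashed lines mark the region with 41 peaks, the next 170 kb with 77 and the previous 170 kb with 0, and most windows lie far below the region.

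The proximal border of the peaks was the first member, at 2483213 to 2483450, which at 6.51 had the lowest score of the region. It lay 13.3 kb inside the region and ranked 6199 by score among the 6207 peaks, so the border rests on a peak near the floor of the list. The next member, of score 34.83, followed after 5.25 kb. Before the first member, no peak was listed for 229 kb, back to a peak of score 7.45 that ends at 2253901. Of the 5888 gaps between neighbouring peaks on the 6 arms, 86 (1.46%) were at least as long. The peak names of the deposited table are numbered without a break on 3R, so no numbered peak is missing from this stretch. The distal border of the region has no such gap. Its last member, at 2639558 to 2639850, scored 7.89, and the next peak, at 2642684 to 2644964, scored 36.14 after a gap of 2.83 kb.

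The first large group of peaks was closely packed and held no score over 40.46. Median scores were alike on both sides of the gap that ends it, 14.81 for the 14 members before and 14.29 for the 27 after, so the sides differed in their few top scores. A run is used here for consecutive peaks separated by at most 5 kb, and the 41 peaks formed 8 runs. The fullest run, at 2488700 to 2509337, held 13 peaks in 20.6 kb and covered 51.2% of that length. Its highest score was 40.46, at 2492314 to 2494587, and its median was 14.88. A further pair of broad peaks lay near it. That at 2488700 to 2490355 scored 34.83, and that at 2497214 to 2499012 scored 33.96. These were 3 of the 5 widest peaks of the region, at 2274, 1656 and 1799 bp, whereas the other members of the 5 widest scored 114.24 and 259.05. The 10 kb bin from 2490000 to 2499999 held 9 peaks, which was the most of the 17 bins, and 70.8% of it was covered. Further along the run, the peak at 2505099 to 2506212 scored 25.75 and that at 2504068 to 2504834 scored 18.05. Its lowest members, at 2496795 to 2497138 and 2499436 to 2499636, scored 8.63 and 9.74.

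A stretch without peaks followed. From 2509338 to 2540928, over 31.6 kb, no peak was listed, and 3 of the 17 bins of 10 kb were empty there. It is the longest gap between members. Gaps of this length or more made up 14.0% of all gaps on the arms, so its length is not rare in the list, but the only other gap over 10 kb in the region was 16.0 kb, at 2592292 to 2608285.

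The highest scores came after that gap. All 4 members with a score of 60 or more lay between 2548896 and 2590035. Peaks also lay farther apart after the gap, with a median of 1125 bp between neighbours, against 264 bp before it. The peak at 2548896 to 2551467 scored 114.24 and was 2.57 kb wide. The peak at 2561025 to 2562161 scored 66.84 at a width of 1.14 kb. The peak at 2571539 to 2572698 scored 99.51 at a width of 1.16 kb. Lower members lay around them. The peaks at 2556489 to 2557134, 2540929 to 2541708 and 2562673 to 2563233 scored 24.91, 20.73 and 19.03.

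The dominant peak of the region was at 2585738 to 2590035. It scored 259.05, against 114.24 for the next member, and it ranked 18 in the whole list and 5 on 3R. With 4298 bp it was also the widest member and ranked 56 by width in the list. The 31 peaks of the list whose width lay within 10% of its own, itself included, had a median score of 108.35, and none scored higher. Before it, no peak was listed for 7.56 kb. After it came a pair of low peaks, which scored 9.99 (2590370 to 2590929) and 10.28 (2592019 to 2592291), and then the gap of 16.0 kb.

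Beyond 2592291, the last 12 members scored between 7.89 and 30.02. The peak at 2608286 to 2608876 scored 16.91 and had no other peak closer than 8.29 kb. A run of 2 followed, in which the peak at 2617171 to 2617529 scored 30.02, the highest score of these 12, and that at 2621139 to 2621594 scored 24.10. The last run, from 2628243, held 9 members in 11.6 kb up to the border, with a median score of 11.56. Its highest, at 2631540 to 2631863, scored 21.31, and its first, at 2628243 to 2628466, scored 8.58. The bin from 2630000 to 2639999 held 7 peaks, the second highest number of the 17 bins, with 28.7% of it covered. The third fullest, from 2550000 to 2559999, held 4. The last run goes on across the border of the region for another 3 peaks, to 2648458. The 15 members whose positions are not given singly scored between 10.46 and 16.10.

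**Figure D3:**
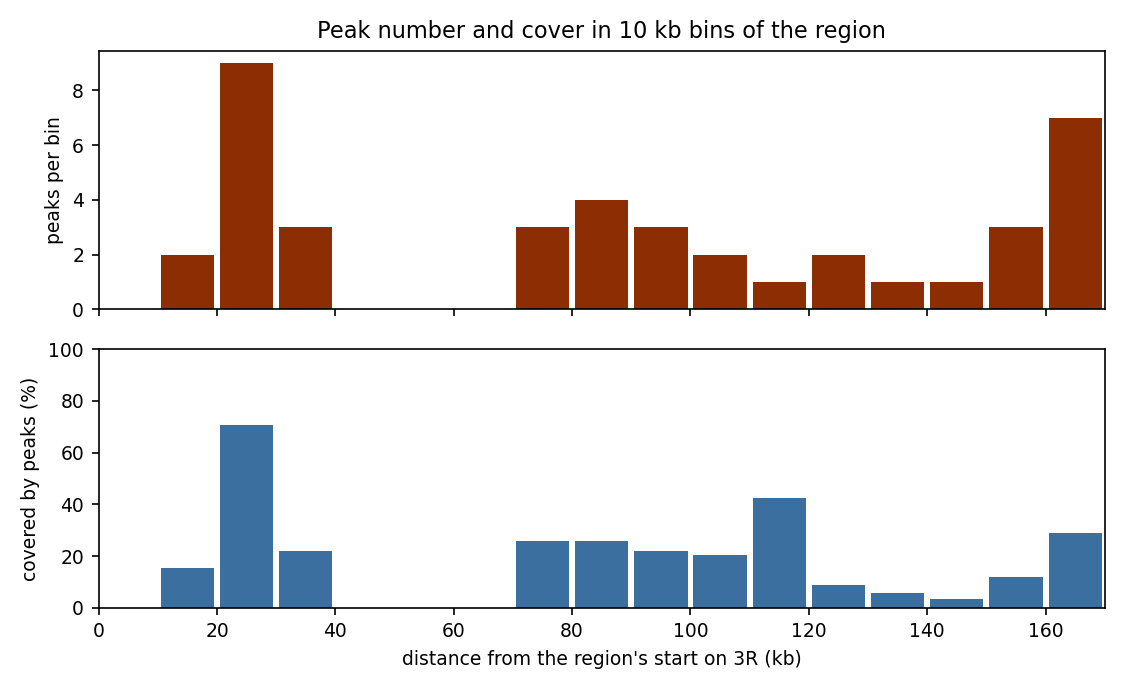
The upper bars give the number of peak centres and the lower bars the percentage of bases covered by peaks, in 17 bins of 10 kb against distance from the region's start in kb. The bin with 9 peaks is 70.8% covered, 4 bins have no peak, and the bin with the highest-scoring peak, at 110 to 120 kb, has a single centre but is 42.6% covered.

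Member scores lay somewhat lower than those of the list, with 26 of the 41 under the list's median. The shares scoring 100 or more and under 10 were near those of the list. Of the 41 members, 5 (12.2%) scored 40 or more, against 17.5% of all peaks. Scores of 100 or more were found for 2 members (4.88%), against 4.32% of all peaks. At the other end, 6 members (14.6%) scored under 10, against 14.3%. The median score was 14.73 (interquartile range 10.93 to 24.10), against 16.93 in the whole list (11.51 to 29.7) and 17.26 in the distal stretch. In that distal stretch, 15 of 77 peaks scored 40 or more and 9 scored 100 or more. Over 2 kb wide were 3 members (7.32%), against 6.44% of all peaks, and median width was 478 bp against 483 bp. Apart from the lower share scoring 40 or more, these shares of the members lay near those of the list. Where peaks under 1 kb apart were merged, each merged peak took the highest score of its parts. Of the 20 merged members, 25% scored 40 or more, against 24.0% of the merged list, and 10.0% scored 100 or more, against 6.22%.

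Wider members scored higher, as in the whole list. Over all members Spearman's rho between score and width was 0.76 (n = 41), and in the whole list it was 0.81 (n = 6207). It was 0.86 for the members before the 31.6 kb gap (n = 14) and 0.69 for those after it (n = 27). All are descriptions across peaks of one list, which share libraries and caller. The broad peaks before the gap were low for their width. The widest of them, 2274 bp, scored 40.46, while the 144 peaks of the list within 10% of that width had a median of 70.27. Those of 1656 and 1799 bp scored 34.83 and 33.96, against medians of 54.67 and 63.63 at their widths. Narrow peaks on that side were not all low. The peak of 224 bp at 2490468 scored 14.73, above 96.1% of its like, and that of 260 bp at 2509078 scored 13.50, above 80.2%. Of all 41 members, 16 scored above the median of peaks of like width, 4 of the 14 before the gap and 12 of the 27 after it. On both sides, fewer peaks scored above that median than did not, and the difference between the sides was not tested. Before the gap, the peaks scoring 15.44 and 9.74 lay just above medians of 15.39 and 9.72. The peak scoring 10.5 lay just below its median of 10.65.

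After the gap, both high and low scores for the width were found among peaks around 1 kb wide. The peak of 1160 bp at 2571539 scored 99.51, above 95.2% of the 311 peaks of like width, which had a median of 37.95. The peak of 1137 bp at 2561025 scored above 83.1% of its like, and the peak at 2577283 to 2578181, 899 bp wide with a score of 13.73, above 5.97%. The narrow peak of 359 bp at 2617171 scored above 97.6% of its like. With 1 list and no replicate, whether score for the width differs between the earlier and the later peaks was not tested.

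**Figure D4:**
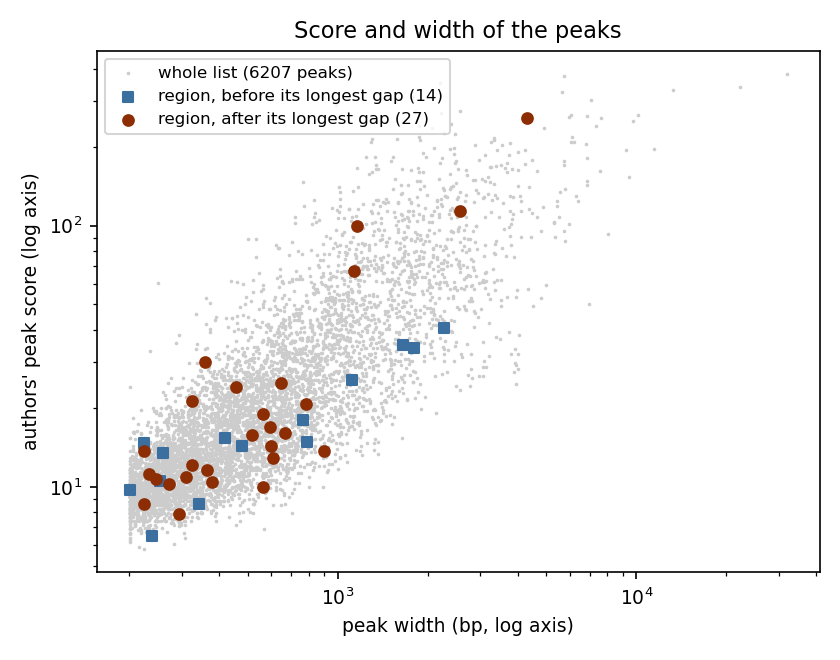
Authors' score (vertical log axis) is plotted against peak width in bp (horizontal log axis), with the 6207 peaks of the list in grey, the 14 members before the 31.6 kb gap as blue squares and the 27 after it as brown circles. The blue squares over 1 kb wide lie in the lower part of the grey cloud, while the brown circles at 99.51 and 66.84 lie in its upper part.

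Members lay close to each other. Another peak centre lay within 10 kb of 41 of 41 members, of 77 of 77 peaks in the distal stretch, and of 85.1% of the whole list. The median distance between neighbouring centres was 1.54 kb, and 1.51 kb in the distal stretch. The gap from the end of a member to the start of the next had a median of 960 bp, against 1638 bp on the arms, and 21 of 40 gaps (52.5%) were under 1 kb, against 41.7% of the gaps on the arms. The shortest gap was 44 bp. A neighbour less than 100 bp away was found for 9 members (22.0%), against 12.7% of all peaks and for 21 of 77 in the distal stretch. The read coverage between such neighbours was not analysed here. Merging peaks closer than 1 kb left 20, of which the widest, at 2488700 to 2495715, spanned 7.02 kb with a top score of 40.46. The merged peak around the highest member spanned 5.19 kb.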

How the data were processed

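The data are a single table of peaks for all 4 libraries together. Per the file headers, coordinates are on FlyBase release 5 and peaks were written by MACS. Per the submitters' processing notes, the build was BDGP5 and the tools were CASAVA (1.7.0.2 and 1.7.0.3), BWA and MACS2. The authors deposited a score per peak, but the sources used here do not give its unit, the calling threshold or any pooling of replicates. Start and end are 1-based, width is end minus start plus 1 bp, and the midpoint places a peak.

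Everything was computed with Python 3.11.15, numpy 2.4.6, pandas 2.3.3 and scipy 1.17.1, with plots by matplotlib 3.10.9, and the functions were tested on simulated lists. No test was run, because the table has no value per library. The region, the score limits of 40 and 100 and the alternatives were chosen with earlier results of these data known. The split at the longest gap was made after the values were seen and supports nothing by itself. Named peaks are the 15 highest, 5 widest and 5 lowest in score, the border peaks and the 3 fullest bins of 10 kb. Others were chosen after their values were seen. They are those scoring 9.99, 10.28, 10.5, 13.50, 13.73, 14.73, 15.44 and 16.91, and the merged peaks. The planned search for motifs, gene features and protein sequences was not run, since no sequence was used here. Gene symbols and order are from the RefSeq table of release 6.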

Additional observations from a re-analysis of the deposited data

How the results depend on the processing

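No paired analysis was possible because each peak carries 1 score for all libraries together. Leaving out a replicate was likewise not possible. Of 47 alternatives to 11 results, 32 stayed within a set limit. The limit was 1.5 times the reported value, or, for the shares of members above a score, its exact 95% binomial interval. That interval treats neighbouring peaks of one list as independent, which they are not, so it is no measure of error. Moving both borders by 10 kb moved none of the 11 beyond that limit. At the proximal border this could neither add nor remove a peak. The first member lay 13.3 kb inside it and the last peak before it 216 kb outside. Members were thus lost or gained only at the distal border, which gave 34 and 44 peaks. Taking members by overlap was run for peak number, cover and median score. It could not change them, since no peak crosses a border, and it tells nothing about stability although it counts among the 32. Merging peaks closer than 1 kb gave 20 peaks, 11.8 per 100 kb, a median score of 22.7, a median width of 1539 bp, a median distance between centres of 6337 bp, at most 2 peaks per bin and a ratio to the distal stretch of 0.909. The 50% of the list with the highest score gave 15 peaks, 8.82 per 100 kb, 11.7% cover, a median width of 1114 bp, a median distance of 6484 bp and at most 2 per bin. Both leave fewer peaks by construction. A merged peak took the highest score of its parts, which also enters the median score of 22.7. The members scoring 40 or more stayed at 5 and those scoring 100 or more at 2, while all members fell from 41 to 20. Merging thereby raised these shares from 12.2% to 25% and from 4.88% to 10.0%. Both changes exceed 1.5 times and count among the 32 only through intervals that are wide with 41 peaks. Runs numbered 17 with gaps of at most 2 kb and 3 with gaps of at most 10 kb. A ratio to the proximal stretch could not be formed, since that stretch held 0 peaks. What depth limits is unknown, since no read number is given.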
